A study of Mus musculus with 18 samples.

Results

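The collagen genes were the rows of the deposited expression table whose symbol has the form of a collagen chain, from Col1a1 to Col28a1. The rule found 44 genes of the 24341 in the table, among them 11 fibrillar and 6 basement membrane collagens. Transcript levels had been measured by polyA RNA sequencing in 18 hearts of C57BL/6 mice aged 12 weeks, 3 hearts in each of 6 groups. Mice labelled cKO carry a cardiac knockout of Med13, a subunit of the kinase module of Mediator, and the others are wild type (WT); the labels do not give the driver of Cre or the recombined part of the gene. Within each genotype, 1 group ate a diet with propylthiouracil (PTU), which blocks thyroid hormone synthesis, from 8 weeks of age for 4 weeks and then had 3 daily injections of triiodothyronine (T3), the active hormone. A further group in each genotype had the PTU diet alone, and the last had normal chow (labelled NC). Hearts are numbered 1 to 3 within a group in order of deposition, so a number only names a heart and pairs nothing across groups.

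Collagens are trimers of chains that wind into a triple helix after prolyl hydroxylation. Fibrillar types I, III and V are laid down by fibroblasts as the load-bearing fibres between muscle bundles, and they accumulate in a scarred heart. Type IV collagen forms instead the sheet-like network of the basement membrane that surrounds each cardiomyocyte and capillary, and most of its chain genes lie head to head in pairs.

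Med13 itself was at 4.93 to 6.82 FPKM in hearts labelled cKO and 5.24 to 6.96 FPKM in WT hearts, so the whole-gene level did not separate the genotypes, and the genotype rests on the labels. FPKM is a read count scaled for transcript length and library size. Cardiomyocyte markers summed to between 24977 and 54882 FPKM in every heart, and 11677 to 12091 genes reached 1 FPKM in a library. Atrial markers summed to between 60.3 and 2608 FPKM in single hearts. Absolute depth is unknown, and relative depth differed by up to 1.52 times between libraries. In whole hearts, fewer cells of a type and less RNA per cell cannot be told apart.

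Of the 44 collagens, 29 reached 1 FPKM in at least 3 libraries and were tested, against 12587 of all genes. Those tested were 8 fibrillar, 5 basement membrane and 16 other collagens. The 15 left out stayed low in nearly every heart. Among them, Col11a1, a minor fibrillar chain that reaches high levels in cartilage, was highest at 3.04 FPKM in 1 heart and passed 1 FPKM in 2 hearts, and Col4a6, the partner of Col4a5, reached 1.08 FPKM. Col26a1 reached 1.15 FPKM. The other 12 (Col2a1, Col24a1, Col9a1, Col9a3, Col19a1, Col22a1, Col6a4, Col6a5, Col7a1, Col10a1, Col17a1 and Col25a1) had their highest heart between 0.0377 and 0.689 FPKM. The cartilage collagen Col2a1 stayed at or under 0.0855 FPKM and stood at the table's floor of 0.01 FPKM in 8 hearts.

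By level, Col3a1 led the family with a mean of 86.1 FPKM over the 18 hearts, followed by Col4a1 at 67.5, Col1a2 at 59.5, Col4a2 at 52.2 and Col1a1 at 44.3 FPKM. Fibrillar collagens held 30.4% to 65.3% of all collagen FPKM in a heart, and basement membrane collagens 13.6% to 43.3%.

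The promoter windows of 3 basement membrane chains whose group means had the same order over treatments are shown because Col4a1 and Col4a2 leave a shared stretch of DNA on opposite strands. The windows run from 250 bases before to 50 after the annotated start and come from RefSeq (GRCm38.p6), in which 35 of the 44 collagens had a window. They lie at chr8:11312777-11313076 (Col4a1, minus strand), chr8:11312555-11312854 (Col4a2, plus strand) and chr1:82586800-82587099 (Col4a4, minus strand). Capitals mark 4 motifs searched on both strands, the CCAAT box (CCAAT), the GC box (GGGCGG), the TATA box (TATAAA) and the short site that nuclear receptors bind (AGGTCA); none of the marked matches overlaps another.
Col4a1: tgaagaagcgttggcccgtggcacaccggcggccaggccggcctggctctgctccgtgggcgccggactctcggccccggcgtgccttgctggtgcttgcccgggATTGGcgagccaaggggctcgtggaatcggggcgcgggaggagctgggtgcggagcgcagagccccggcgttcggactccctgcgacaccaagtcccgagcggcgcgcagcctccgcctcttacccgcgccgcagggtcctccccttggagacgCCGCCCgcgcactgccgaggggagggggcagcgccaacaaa
Col4a2: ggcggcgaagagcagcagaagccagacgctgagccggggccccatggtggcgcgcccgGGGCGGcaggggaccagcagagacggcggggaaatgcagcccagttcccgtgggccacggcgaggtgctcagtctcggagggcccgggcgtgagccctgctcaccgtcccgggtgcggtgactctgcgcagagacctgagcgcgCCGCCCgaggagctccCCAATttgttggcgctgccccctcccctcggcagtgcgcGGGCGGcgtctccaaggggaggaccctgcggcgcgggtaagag
Col4a4: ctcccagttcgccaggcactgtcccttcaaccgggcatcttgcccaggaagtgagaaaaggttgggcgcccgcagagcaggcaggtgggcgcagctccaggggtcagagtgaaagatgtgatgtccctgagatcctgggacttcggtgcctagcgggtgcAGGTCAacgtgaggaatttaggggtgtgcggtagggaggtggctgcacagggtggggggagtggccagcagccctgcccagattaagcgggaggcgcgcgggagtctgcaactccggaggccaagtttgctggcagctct

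The annotated starts of Col4a1 and Col4a2 lie 21 bases apart and past each other, so their first exons share 22 bases and their windows share 78. The CCAAT box of the Col4a2 window lies at position -32 from its start and that of the Col4a1 window at -145, on the opposite strand. A GC box (GGGCGG) occurs 3 times in the Col4a2 window and once in that of Col4a1. The Col4a1 match, at position 10, and the Col4a2 match at position 8 are the same bases, in the shared stretch, read on opposite strands. The Col4a4 window holds AGGTCA at position -90 and none of the other motifs. Over all 32851 windows, CCAAT occurs in 37.4%, GGGCGG in 35.7%, TATAAA in 13.6% and AGGTCA in 16.3%. These matches describe letters only. Col4a3, whose annotated start at base 82586921 of chromosome 1 faces that of Col4a4 at 82586849, has no window here. The libraries do not mark strand, so reads from stretches shared with a gene on the other strand cannot be assigned; for Col4a3 that stretch is 563 of 9967 annotated exon bases (with C430014B12Rik), and for Col4a1 and Col4a2 no such stretch exceeds 0.65% of exon bases.

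For 4 of the 5 tested basement membrane chains, group means were lowest on PTU and highest after T3 in both genotypes. All 4 passed both tests around PTU in WT; in hearts labelled cKO, Col4a4 alone passed against chow, Col4a2, Col4a3 and Col4a4 passed for T3 against PTU, and Col4a1 passed no comparison. Col4a1 and Col4a2, the pair that makes up most type IV collagen, and Col4a3 and Col4a4, the rarer pair of its other network, all had this order of group means. Col4a5, the third chain of that other network, did not. Col4a3 reached 1 FPKM in 6 T3 hearts, 4 chow hearts and 0 PTU hearts. It thus passed the filter only through the groups where it is high, and its calls are given as a description and support nothing. Summed over the 6 chains, hearts after T3 had 155 to 231 FPKM, PTU hearts 74.0 to 164 FPKM and chow hearts 117 to 165 FPKM.

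In WT hearts, Col4a1 was at 73.9, 116 and 88.6 FPKM after PTU and T3, at 36.2, 52.4 and 34.0 FPKM on PTU, and at 63.4, 61.7 and 85.3 FPKM on chow. Among hearts labelled cKO, Col4a1 was at 83.3, 73.2 and 80.9 FPKM after PTU and T3, at 47.2, 89.0 and 41.8 FPKM on PTU, and at 62.3, 58.3 and 67.5 FPKM on chow. Every WT PTU heart lay below every other WT heart, whereas heart 2 of the PTU group labelled cKO, at 89.0 FPKM, lay above all 3 hearts of that genotype after T3.

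Col4a2 in WT hearts was at 64.0, 90.1 and 83.1 FPKM after PTU and T3, at 27.4, 34.7 and 25.8 FPKM on PTU, and at 45.8, 44.8 and 57.2 FPKM on chow. Col4a2 in hearts labelled cKO was at 79.9, 70.5 and 67.9 FPKM after PTU and T3, at 31.6, 54.0 and 27.1 FPKM on PTU, and at 45.1, 44.1 and 47.1 FPKM on chow. In both genotypes all T3 hearts lay above all PTU and all chow hearts, and in WT all PTU hearts lay below all chow hearts.

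The less abundant pair had the same order at much lower levels. In WT hearts, Col4a3 was at 1.54, 2.99 and 3.52 FPKM after PTU and T3, at 0.375, 0.377 and 0.501 FPKM on PTU, and at 1.44, 1.05 and 2.96 FPKM on chow. Col4a3 in hearts labelled cKO was at 2.64, 1.76 and 1.87 FPKM after PTU and T3, at 0.528, 0.687 and 0.475 FPKM on PTU, and at 0.932, 0.929 and 1.49 FPKM on chow. No PTU heart of either genotype overlapped a heart of the same genotype in the other treatments. Col4a4 in WT hearts was at 2.81, 4.15 and 4.21 FPKM after PTU and T3, at 0.989, 0.914 and 0.938 FPKM on PTU, and at 2.69, 2.11 and 4.30 FPKM on chow. Col4a4 in hearts labelled cKO was at 3.73, 2.91 and 2.60 FPKM after PTU and T3, at 1.01, 1.38 and 1.10 FPKM on PTU, and at 1.91, 2.05 and 2.79 FPKM on chow. All PTU values of Col4a4 were under 1.4 FPKM and all others were at least 1.91 FPKM.

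**Figure D1:**
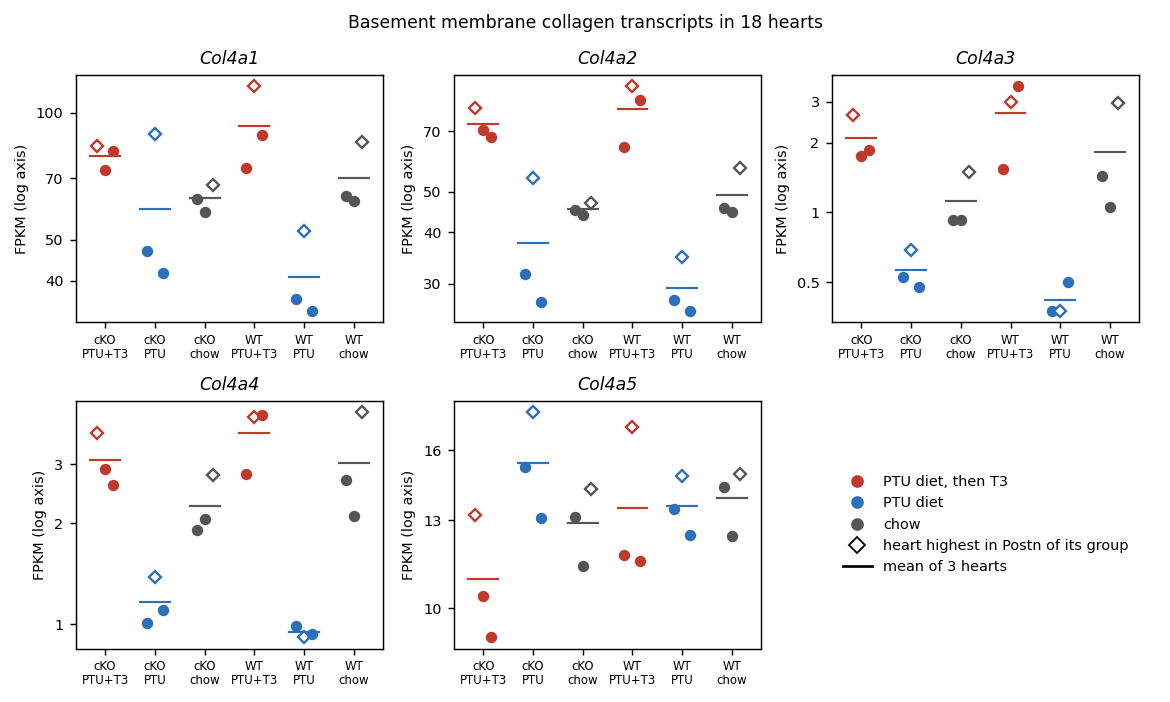
FPKM (log axis) of Col4a1, Col4a2, Col4a3, Col4a4 and Col4a5 in each heart of the 6 groups; lines are means of 3 hearts and open diamonds the heart with the highest Postn of its group. For Col4a3 and Col4a4 the PTU hearts lie below the hearts of their genotype on chow and after T3, and for Col4a1 and Col4a2 the T3 hearts of WT lie above its PTU hearts.

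PTU against chow was tested in each genotype with limma on log2(FPKM + 1), with p-values adjusted over all 12587 genes by the Benjamini-Hochberg method and calls made below 0.05. In WT hearts 5 of 29 collagens were called, 1 higher and 4 lower, against 16.8% of all genes (8.02% higher and 8.76% lower). Hearts of the PTU and chow groups did not overlap for 8 of 29 collagens in WT, against 35.6% of all genes, and for 9 in hearts labelled cKO, against 32.4%. The 4 lower were all basement membrane chains. On the log2 scale Col4a4 fell by 1.01 (SE 0.18, adjusted p = 0.00126), Col4a3 by 0.93 (SE 0.23, adjusted p = 0.0106), Col4a1 by 0.77 (SE 0.24, adjusted p = 0.0367) and Col4a2 by 0.73 (SE 0.20, adjusted p = 0.0186). Col4a5 had a log2 change of -0.03 (SE 0.15). The log2(FPKM + 1) scale understates changes of low genes such as Col4a3 and Col4a4. In hearts labelled cKO 4 of 29 collagens were called, 3 higher and 1 lower, against 16% of all genes (6.44% higher and 9.59% lower); the lower gene was Col4a4, which fell by 0.58 (SE 0.18, adjusted p = 0.0365), and Col4a1, Col4a2 and Col4a3 had log2 changes of -0.16, -0.33 and -0.43 with adjusted p of 0.700, 0.276 and 0.217. Without WT chow heart 3 the call of Col4a3 in WT was lost (log2 change -0.66, adjusted p = 0.0528). The call of Col4a2 was lost without that heart, WT PTU heart 1 or WT PTU heart 3, and that of Col4a1 without any 1 of the WT chow hearts or WT PTU heart 1 or 3, with log2 changes of -0.69 to -0.62 and -0.86 to -0.63; the call of Col4a4 labelled cKO was lost without any 1 of its chow hearts or PTU heart 1 or 3 (-0.66 to -0.47). Without the heart highest in atrial markers of each group, the WT calls of Col4a1, Col4a2 and Col4a3 and the call of Col4a4 in hearts labelled cKO were lost, and 5.26% of all genes were then called in WT and 4.11% in hearts labelled cKO.

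PTU with T3 against PTU called 8 of 29 collagens in WT, 6 higher and 2 lower, against 44.1% of all genes (22.3% higher and 21.8% lower), so a smaller share of collagens than of all genes passed. The 2 groups did not overlap for 9 of 29 collagens in WT (50.7% of all genes) and for 9 in hearts labelled cKO (55.4%). Of the 6 higher, 4 were basement membrane chains. Col4a2 rose by 1.40 (SE 0.20, adjusted p = 4.3e-05), Col4a3 by 1.34 (SE 0.23, adjusted p = 0.000214), Col4a4 by 1.26 (SE 0.18, adjusted p = 3.9e-05) and Col4a1 by 1.16 (SE 0.24, adjusted p = 0.00111). Col4a3 and Col4a4 were low on PTU, where log2(FPKM + 1) understates a change, so these sizes do not rank the 4 chains by FPKM ratio. For hearts labelled cKO 7 of 29 collagens were called, 3 higher and 4 lower, against 46.7% of all genes (24.9% higher and 21.8% lower). Col4a2 rose there by 0.99 (SE 0.20, adjusted p = 0.000707), Col4a3 by 0.97 (SE 0.23, adjusted p = 0.00239) and Col4a4 by 0.91 (SE 0.18, adjusted p = 0.000604), while Col4a1 had a log2 change of 0.49 (SE 0.24, adjusted p = 0.106). Col4a5 was among the 4 lower, with a log2 change of -0.47 (SE 0.15, adjusted p = 0.0209). That call was lost without PTU heart 2 or T3 heart 2 or 3 labelled cKO (-0.44 to -0.36). The calls of Col4a1, Col4a2, Col4a3 and Col4a4 in WT, and of Col4a2, Col4a3 and Col4a4 in hearts labelled cKO, held under all 28 alternatives. Those of Col4a3 remain a description, because of how it passed the filter. These comparisons share their PTU hearts with those against chow, so opposite signs in the 2 comparisons are not independent.

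Col4a5, which lies on the X chromosome, was at 11.7, 17.1 and 11.5 FPKM after PTU and T3, at 13.4, 14.8 and 12.4 FPKM on PTU and at 14.4, 12.4 and 14.9 FPKM on chow in WT hearts. In hearts labelled cKO it was at 13.2, 10.4 and 9.17 FPKM after PTU and T3, at 15.2, 17.9 and 13.1 FPKM on PTU and at 13.1, 11.3 and 14.2 FPKM on chow. WT groups overlapped throughout.

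Against chow, PTU with T3 called 1 of 29 collagens in WT (14.7% of all genes, 7.68% higher and 7% lower) and 1 in hearts labelled cKO (20.9% of all genes, 11.7% higher and 9.15% lower), and in both it was Col4a2. Groups did not overlap for 1 collagen in WT (31.4% of all genes) and 7 in hearts labelled cKO (41.7%). Col4a2 rose by 0.67 in WT (SE 0.20, adjusted p = 0.0340) and by 0.66 in hearts labelled cKO (SE 0.20, adjusted p = 0.0251). The WT call was lost without WT T3 heart 2 or 3 or WT chow heart 1 or 2 (0.57 to 0.62), and the other without T3 heart 1 or 2 or any 1 chow heart labelled cKO (0.60 to 0.69). Col4a1 had log2 changes of 0.39 in WT and 0.33 in hearts labelled cKO, and neither was called.

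Macrophage markers had log2 changes in the same direction as Col4a1, Col4a2, Col4a3 and Col4a4. For PTU against chow, 16.8% of all genes were called in WT (8.76% lower) and 16% in hearts labelled cKO (9.59% lower). For T3 against PTU the shares were 44.1% in WT (22.3% higher) and 46.7% in hearts labelled cKO (24.9% higher). Of 9 macrophage markers, 6 were lower on PTU than on chow in WT and none in hearts labelled cKO, and after T3 8 were higher than on PTU in WT and 6 in hearts labelled cKO. Their summed level was 491 to 831 FPKM after T3, 193 to 640 FPKM on PTU and 341 to 618 FPKM on chow, and none of the 9 was at the table's floor in any heart. Of 12 endothelial markers, genes of the cells that line capillaries, 1 was lower on PTU in WT and 2 in hearts labelled cKO, and after T3 2 were higher and 1 lower in WT and 3 higher and 1 lower in hearts labelled cKO, with sums of 412 to 549 FPKM after T3, 446 to 489 FPKM on PTU and 473 to 545 FPKM on chow. All 4 tested markers of dividing cells were higher after T3 than on PTU in both genotypes. Of 10 mural cell markers, 1 was lower on PTU in WT, and in hearts labelled cKO 1 was higher and 2 lower; after T3, 1 was higher and 1 lower in each genotype. Among them Acta2, a smooth muscle actin named after its values were seen, fell by 1.85 on PTU and rose by 2.98 after T3 in WT. Acta2 did not stand for its list. Myh11, of the same list, had a log2 change of 0.29 on PTU in WT, not called, and fell by 0.55 after T3. Of 4 red blood cell markers, 3 were lower on PTU and 2 higher after T3 in hearts labelled cKO, and none was called in WT. The endothelial and mural shares called after T3 were below those of all genes in both genotypes. The part of these cell types in the basement membrane result was not tested.

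Fibrillar collagens gave no call in any of the 12 comparisons, and their highest values came from single hearts. At an unadjusted p under 0.05, limma counted 0 of 8 for PTU against chow in WT (31.1% of all genes) and 1 in hearts labelled cKO (30.7%), and for T3 against PTU 1 in WT (51.4%) and 2 in hearts labelled cKO (53.6%). In the authors' deposited tables, PTU against chow in WT had 5 fibrillar collagens with a q-value under 0.05, 1 higher and 4 lower (16.8% of all genes), and T3 against PTU in WT had 6, 5 higher and 1 lower (35.6% of all genes). Col1a1 and Col1a2 encode the chains of type I collagen, Col3a1 that of type III, which forms the finer fibres, and Col5a1 and Col5a2 chains of type V, which starts fibril growth.

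Col1a1 in WT hearts was at 21.9, 156 and 34.6 FPKM after PTU and T3, at 15.9, 60.4 and 7.73 FPKM on PTU and at 27.1, 23.6 and 66.6 FPKM on chow. Col1a1 in hearts labelled cKO was at 45.7, 20.2 and 26.2 FPKM after PTU and T3, at 21.7, 170 and 18.3 FPKM on PTU and at 29.97, 20.1 and 31.3 FPKM on chow. Heart 2 stood far above the others in the WT T3 group and in the PTU group labelled cKO, and the ranges of all groups of a genotype overlapped.

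Col3a1 in WT hearts was at 41.1, 323 and 73.4 FPKM after PTU and T3, at 23.6, 98.9 and 13.6 FPKM on PTU and at 54.3, 50.5 and 127 FPKM on chow. Col3a1 in hearts labelled cKO was at 100.2, 41.5 and 45.0 FPKM after PTU and T3, at 34.6, 329 and 27.8 FPKM on PTU and at 59.2, 39.4 and 67.2 FPKM on chow. Within the PTU group labelled cKO the highest heart was 11.8 times the lowest, the widest ratio of any tested fibrillar chain in any group. Col1a2 in WT hearts was at 32.9, 174 and 45.3 FPKM after PTU and T3, at 31.1, 70.9 and 20.4 FPKM on PTU and at 45.4, 43.8 and 88.0 FPKM on chow. Col1a2 in hearts labelled cKO was at 53.4, 31.2 and 33.6 FPKM after PTU and T3, at 36.7, 198 and 33.9 FPKM on PTU and at 46.8, 33.3 and 51.2 FPKM on chow. The same single hearts were highest for Col1a2 as for Col1a1 and Col3a1 in every group.

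Type V chains repeated this at lower levels. Col5a1 in WT hearts was at 8.87, 30.8 and 13.1 FPKM after PTU and T3, at 5.97, 13.2 and 4.49 FPKM on PTU and at 8.01, 8.21 and 15.6 FPKM on chow. Col5a1 in hearts labelled cKO was at 16.3, 9.38 and 10.2 FPKM after PTU and T3, at 6.76, 27.3 and 6.67 FPKM on PTU and at 8.67, 7.51 and 9.66 FPKM on chow. PTU hearts 1 and 3 of both genotypes were the lowest of their genotype for Col5a1. Col5a2 in WT hearts was at 7.20, 51.7 and 9.84 FPKM after PTU and T3, at 6.73, 16.1 and 4.46 FPKM on PTU and at 8.86, 6.94 and 18.1 FPKM on chow. Col5a2 in hearts labelled cKO was at 13.6, 6.93 and 8.27 FPKM after PTU and T3, at 7.16, 49.7 and 6.82 FPKM on PTU and at 9.53, 5.97 and 9.91 FPKM on chow. The groups overlapped for Col5a2 in both genotypes. The minor fibrillar chains were low, with Col5a3 between 1.81 and 4.91 FPKM, Col27a1 between 1.41 and 4.32 FPKM and Col11a2 between 0.540 and 1.33 FPKM.

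**Figure D2:**
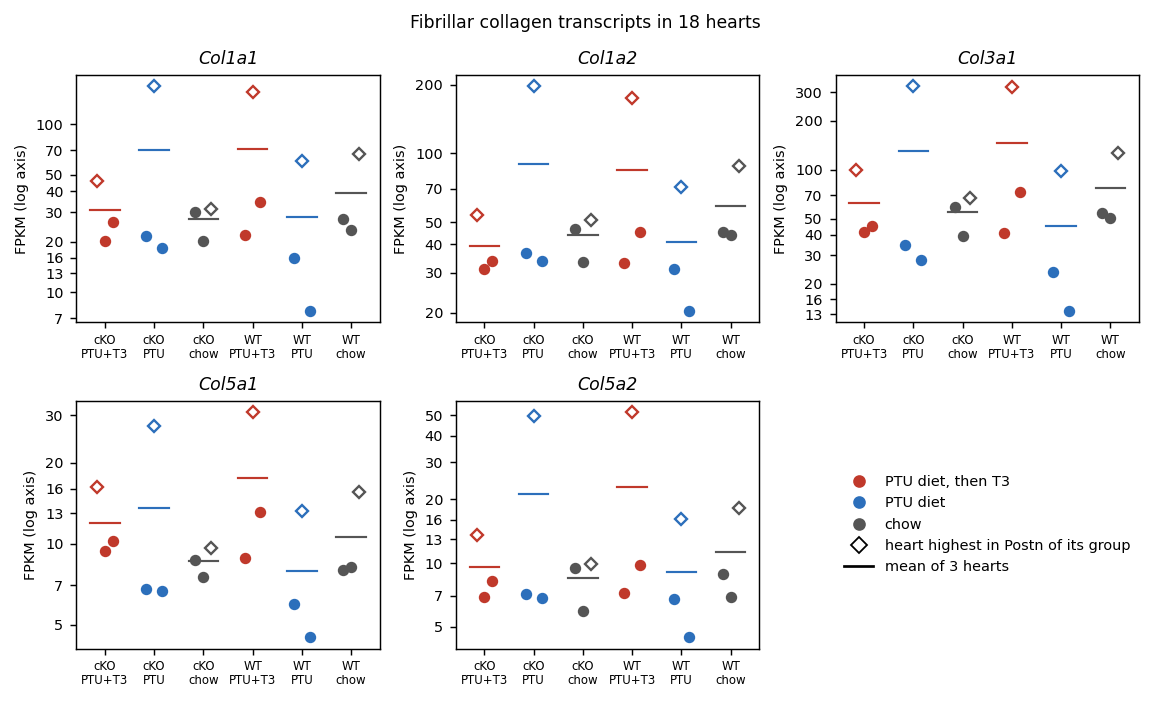
FPKM (log axis) of Col1a1, Col1a2, Col3a1, Col5a1 and Col5a2 in each heart of the 6 groups; lines are means of 3 hearts and open diamonds the heart with the highest Postn of its group. The diamond is the highest heart of its group in all 5 panels, reaching 329 FPKM for Col3a1 in the PTU group labelled cKO.

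Log2 changes of the 5 main fibrillar chains had large errors, and none was called. On PTU against chow, Col3a1 had -1.12 (SE 0.98), Col1a1 -0.79 (SE 0.92), Col1a2 -0.63 (SE 0.71), Col5a1 -0.45 (SE 0.53) and Col5a2 -0.35 (SE 0.78) in WT, with adjusted p from 0.475 to 0.803. In hearts labelled cKO the same chains, in the order Col3a1, Col1a1, Col1a2, Col5a1 and Col5a2, had positive log2 changes of 0.34, 0.61, 0.54, 0.31 and 0.67 with the same errors. For T3 against PTU they had 1.61, 1.28, 0.83, 1.01 and 0.90 in WT and -0.26, -0.49, -0.70, 0.09 and -0.53 in hearts labelled cKO. The 95% interval of the Col3a1 difference between T3 and PTU in WT ran from -0.50 to 3.72. The minor chains Col5a3, Col27a1 and Col11a2 had log2 changes between -0.49 and 0.46 in these 4 comparisons.

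Spread between hearts of one group was large for the 5 main fibrillar chains and moderate for basement membrane collagens. The residual SD on the log2 scale, over all 6 groups, was 1.25 for Col3a1, 1.18 for Col1a1, 0.996 for Col5a2, 0.91 for Col1a2 and 0.69 for Col5a1. These lie at the 98.9th to 99.8th percentile of the 12587 tested genes, whose median was 0.15. For basement membrane chains it ran between 0.20 for Col4a5 and 0.32 for Col4a1, the 72.4th to 91.1st percentile. The minor fibrillar chains Col5a3 (0.28), Col27a1 (0.27) and Col11a2 (0.18) lay within or below that range. The class median was 0.80 for the 8 fibrillar and 0.27 for the 5 basement membrane collagens. Col8a1, a network collagen of vessels, at 0.94 and Col14a1, which coats fibrils, at 0.73 were as uneven as the main fibrillar chains. Col6a6, a type VI chain, at 0.09 was more even than most genes. Adding 1 FPKM before the log narrows this SD for low genes, among them Col4a3, Col4a4, Col11a2 and Col6a6.

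**Figure D3:**
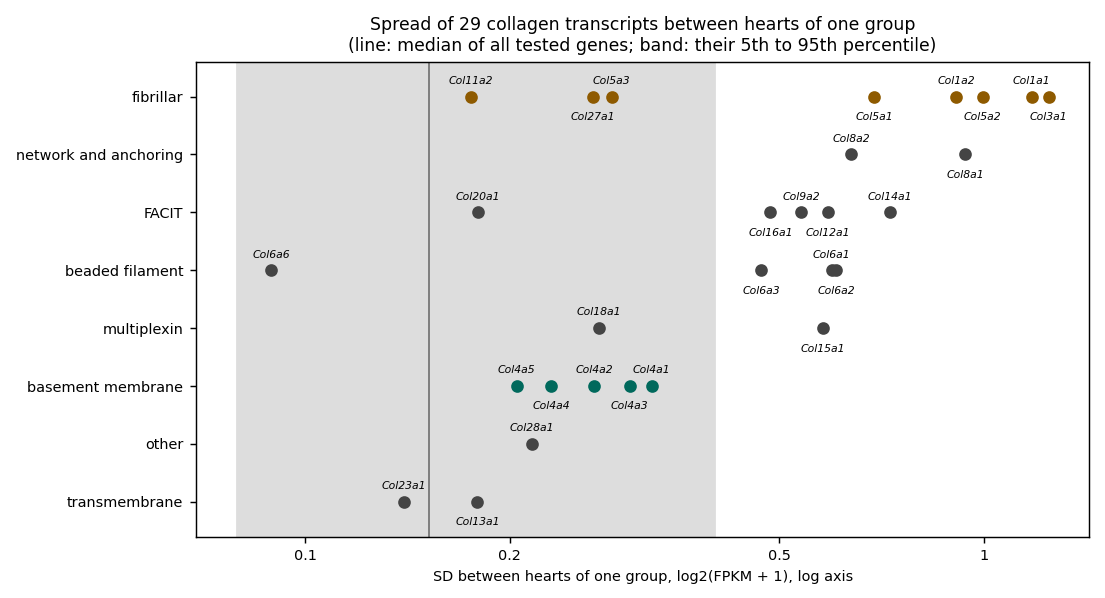
Residual SD between hearts of one group on the log2(FPKM + 1) scale (log axis) for each of the 29 tested collagens, by class; the line is the median of all 12587 tested genes (0.15) and the band their 5th to 95th percentile. The 5 main fibrillar chains lie to the right of the band, as do Col8a1, Col8a2, Col15a1, Col6a1, Col6a2, Col6a3 and the fibril-associated chains other than Col20a1, and all 5 basement membrane chains lie inside it.

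The heart with the most fibrillar collagen in each group was also the one with the most Postn, which encodes periostin, a matrix protein of activated fibroblasts. These were T3 heart 1, PTU heart 2 and chow heart 3 among hearts labelled cKO, and T3 heart 2, PTU heart 2 and chow heart 3 among WT hearts. Their Postn was 38.6, 411 and 30.8 FPKM in hearts labelled cKO and 336, 138 and 114 FPKM in WT hearts, in the same order, where the other hearts had between 8.71 and 32.1 FPKM. Summed fibrillar FPKM in them was 1.29 to 7.38 times the mean of the other hearts of the group, against 1.11 to 1.82 times for basement membrane collagens. Fibroblast markers outside the collagens, 12 genes, were 1.17 to 1.44 times as high and cardiomyocyte markers 0.675 to 0.898 times. Macrophage markers were 0.781 to 2.95 times and mural cell markers 0.896 to 1.86 times as high. Valve and cartilage markers were 1.29 to 3.38 times the mean of the other hearts. In the WT PTU group, however, another heart was higher, at 21.98 against 18.48 FPKM. The part of any of these in the collagen levels was not tested.

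**Figure D4:**
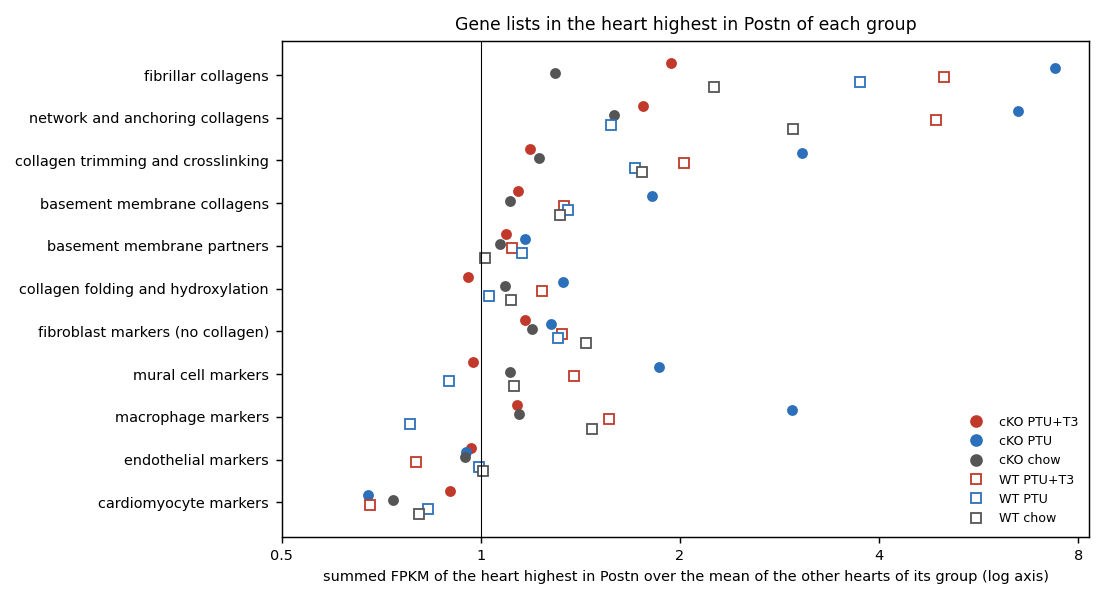
Summed FPKM of each gene list in the heart with the highest Postn of its group, divided by the mean of the other hearts of that group (log axis), for the 6 groups (filled circles, labelled cKO; open squares, WT). Fibrillar collagens reach 7.38 times in the PTU group labelled cKO, while basement membrane collagens stay between 1.11 and 1.82 times and cardiomyocyte markers under 1.

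Results were therefore also computed without these 6 hearts, a choice made after their values were seen, which narrows the spread by its construction and leaves 2 hearts in a group. In WT, 10 collagens were then lower on PTU than on chow and none was higher, against 12.3% of all genes called, and 3 of them were fibrillar, Col3a1 (-1.49, adjusted p = 0.0204), Col1a2 (-0.80, adjusted p = 0.0376) and Col5a1 (-0.56, adjusted p = 0.0475). After T3, 14 collagens were called in WT against PTU, 11 higher and 3 lower (36.9% of all genes), among them Col3a1 (1.56), Col1a1 (1.23) and Col5a1 (0.93) higher and Col27a1 (-0.42) lower. Hearts labelled cKO had 6 calls for PTU against chow (14.7% of all genes), none of them fibrillar, and 14 for T3 against PTU (40.9% of all genes), 7 higher and 7 lower. There Col5a1 was higher (0.49, adjusted p = 0.0337) and Col27a1 lower (-0.39, adjusted p = 0.0415). The positive PTU changes of Col1a1, Col1a2, Col3a1, Col5a1 and Col5a2 in hearts labelled cKO turned negative, between -0.62 and -0.10, without a call, and leaving out PTU heart 2 labelled cKO alone also turned all 5. For T3 against PTU, the log2 changes of Col4a1, Col4a2, Col4a3 and Col4a4 were then 1.18, 1.42, 1.24 and 1.18 in WT and 0.78, 1.21, 0.90 and 0.87 in hearts labelled cKO, all called. The call of Col4a1 in hearts labelled cKO was gained, at 0.78 (adjusted p = 0.000274) against 0.49 with all hearts.

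**Figure D5:**
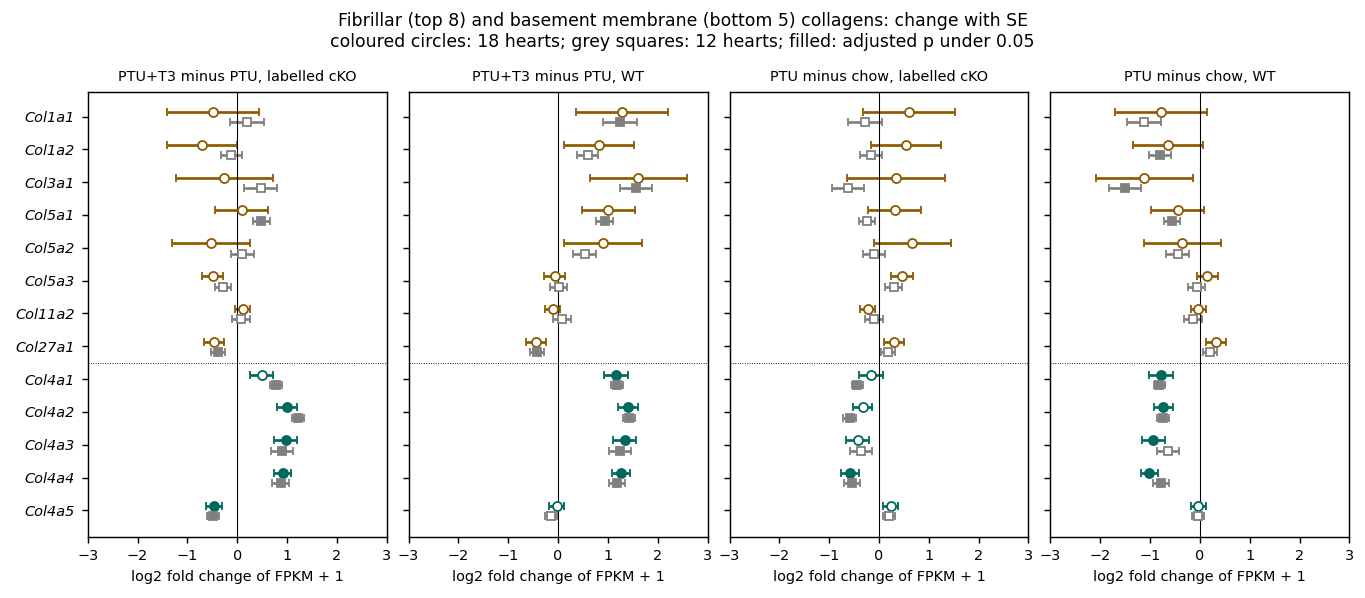
Log2 fold change of FPKM + 1 with SE for 8 fibrillar and 5 basement membrane collagens, for PTU with T3 minus PTU and PTU minus chow in each genotype; coloured circles use 18 hearts, grey squares the 12 hearts left without the highest in Postn of each group, and filled symbols have an adjusted p under 0.05. No coloured fibrillar circle is filled, while Col4a2, Col4a3 and Col4a4 are filled for T3 minus PTU in both genotypes under both choices. Calls of Col4a3 are a description only.

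Among the other collagens, 6 were called in at least 1 of these 4 comparisons. Col15a1, a multiplexin collagen that links basement membranes to the matrix beneath, had the largest change of any collagen on the log2(FPKM + 1) scale. That scale understates changes of low genes such as Col4a3, so this is no ranking by FPKM ratio. In WT hearts, Col15a1 was at 20.8, 58.5 and 28.6 FPKM after PTU and T3, at 7.60, 10.2 and 4.45 FPKM on PTU and at 15.4, 16.4 and 26.8 FPKM on chow. It rose by 2.06 for T3 against PTU in WT (SE 0.44, adjusted p = 0.00184), a call that held under all 28 alternatives. In hearts labelled cKO, Col15a1 was at 28.5, 19.9 and 27.9 FPKM after PTU and T3, at 8.64, 30.7 and 9.82 FPKM on PTU and at 13.7, 12.7 and 16.8 FPKM on chow, and its change of 0.81 was not called (adjusted p = 0.148). Its partner in the class, Col18a1, the source of endostatin, was between 2.21 and 6.55 FPKM and not called.

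Col6a3, a chain of the beaded filaments that tie cells to fibrils, was at 5.76, 16.7 and 6.62 FPKM after PTU and T3 and at 3.25, 5.53 and 2.19 FPKM on PTU in WT hearts. It rose by 1.12 (SE 0.35, adjusted p = 0.0172), and the call was lost without WT T3 heart 2 (log2 change 0.69) or WT PTU heart 3 (0.88). Its partners Col6a1 and Col6a2 had log2 changes of 0.77 and 1.05 there, not called. Col16a1, a fibril-associated chain, was at 3.28, 2.29 and 2.77 FPKM after PTU and T3 and at 4.43, 10.9 and 4.61 FPKM on PTU in hearts labelled cKO. Col16a1 fell by 0.93 (SE 0.36, adjusted p = 0.0458), and the call was lost without any 1 of 9 hearts (WT PTU heart 1, WT chow heart 1, and of those labelled cKO PTU heart 2, each T3 heart and each chow heart), with changes of -1.02 to -0.56. The other tested fibril-associated chains, Col12a1, Col14a1, Col20a1 and Col9a2, and the network chains Col8a1 and Col8a2 were not called.

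Of the transmembrane collagens, which sit in the cell surface, both tested members ran against Col4a1, Col4a2, Col4a3 and Col4a4. Col13a1, found at neuromuscular and cell junctions, was at 1.01, 0.636 and 0.860 FPKM after PTU and T3, at 1.56, 1.54 and 1.56 FPKM on PTU and at 1, 0.875 and 0.504 FPKM on chow in WT hearts. Col13a1 in hearts labelled cKO was at 0.847, 1.33 and 0.969 FPKM after PTU and T3, at 1.98, 1.08 and 1.81 FPKM on PTU and at 0.673, 0.994 and 0.895 FPKM on chow. It rose by 0.52 on PTU in WT (SE 0.15, adjusted p = 0.0273) and by 0.49 in hearts labelled cKO (SE 0.15, adjusted p = 0.0389), and fell by 0.48 after T3 in WT (SE 0.15, adjusted p = 0.0173). The PTU call was lost in WT without any PTU heart or chow heart 3 (0.40 to 0.52) and in hearts labelled cKO without PTU heart 1 or 3 or any chow heart (0.39 to 0.54), and the T3 call in WT without T3 heart 2 (-0.40).

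Col23a1, the other, was at 0.909, 0.901 and 0.668 FPKM after PTU and T3, at 1.48, 1.35 and 2 FPKM on PTU and at 0.648, 0.822 and 1.19 FPKM on chow in hearts labelled cKO. It rose by 0.47 on PTU (SE 0.13, adjusted p = 0.0223) and fell by 0.51 after T3 (SE 0.13, adjusted p = 0.00432). The PTU call was lost without PTU heart 3 or chow heart 1 or 2 of that genotype (0.37 to 0.45). In WT hearts Col23a1 had a log2 change of 0.22 on PTU (adjusted p = 0.267) and was called neither there nor after T3. Col28a1, a chain of peripheral nerve in mice, was at 0.504, 0.540 and 0.399 FPKM after PTU and T3, at 1.79, 2.01 and 1.45 FPKM on PTU and at 0.554, 0.795 and 0.942 FPKM on chow in hearts labelled cKO, where all PTU hearts lay above all others. Of the 6 libraries in which Col28a1 reached 1 FPKM, 5 were PTU hearts, so it passed the filter only through the groups where it is high, and its calls are given as a description and support nothing. Its log2 change on PTU was 0.64 in hearts labelled cKO (adjusted p = 0.0218), and after T3 it was -0.89 there (adjusted p = 0.000665) and -0.46 in WT (adjusted p = 0.0425). With no filter on low values the adjusted p of these was 0.0293, 0.000965 and 0.0522. Leaving out PTU heart 1 or 2 or chow heart 1 or 2 labelled cKO ended the first call (0.55 to 0.66). The call in WT ended without any 1 of 9 hearts (-0.52 to -0.28), which were WT T3 heart 1 or 2, WT PTU heart 1 or 2, WT chow heart 1 and, of those labelled cKO, T3 heart 1 or 2, PTU heart 1 or chow heart 2. All 3 genes are near 1 FPKM, where log2(FPKM + 1) understates a change. The 3 tested Schwann cell markers, genes of the cells that wrap nerves, had 1 higher on PTU in hearts labelled cKO and none in WT. After T3, 2 were lower in each genotype. Of all genes, 6.44% were higher on PTU in hearts labelled cKO and 8.02% in WT, and 21.8% were lower after T3 in each genotype. The part of Schwann cells in the level of Col28a1 was not tested.

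The genotypes were compared on each treatment. None of the 29 collagens was called for cKO against WT on chow, on PTU, after T3 or averaged over treatments, and 0% of all genes were called by limma in each; at an unadjusted p under 0.05 there were 0, 1, 0 and 0 collagens, against 3.13%, 3.9%, 3.45% and 1.66% of all genes. The interaction of genotype with PTU or with T3 also gave no call among collagens, with unadjusted counts of 0 and 1 (6.4% and 6.52% of all genes), and none among all genes (0%). Hearts of the 2 genotypes did not overlap for 0 of 29 collagens on chow (8.51% of all genes), 2 on PTU (7.52%) and 1 after T3 (8.54%). Signs were nearly uniform within a treatment: on PTU 27 of 29 collagens had a higher mean in hearts labelled cKO, after T3 27 of 29 a lower mean, and on chow 27 of 29 a lower mean. In the PTU group labelled cKO and the WT T3 group, heart 2 carries the highest value of most of the 29, as heart 3 does in the WT chow group. These sign counts are thus not counts of independent genes. Over all genes, the median log2 difference was 0.0039 on chow, -0.012 on PTU and 0.015 after T3. In the authors' deposited tables, 10 collagens were higher in hearts labelled cKO than in WT on PTU and none lower (0.95% of all genes), 12 were lower and none higher after T3 (0.991% of all genes), and 2 were lower on chow (0.664% of all genes). Fibrillar chains were 6 of those 10 and 5 of those 12 in the authors' deposited tables, and no basement membrane chain was among them. In the authors' deposited table, Col3a1 on PTU had group values of 137 FPKM in hearts labelled cKO and 47.1 FPKM in WT hearts (q = 0.00844), whereas 2 of the 3 hearts labelled cKO had 34.6 and 27.8 FPKM.

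The genes that fold, trim, bind and remove collagen were described from 7 lists. Their counts stand against the shares of all genes called, which for PTU were 16.8% in WT (8.02% higher and 8.76% lower) and 16% in hearts labelled cKO, and for T3 against PTU 44.1% in WT (22.3% higher and 21.8% lower) and 46.7% in hearts labelled cKO. For folding, trimming, proteoglycan, breakdown and TGF-beta genes the share called after T3 was below that of all genes in both genotypes, and no count is a result about a list. Of 19 tested genes for folding and hydroxylation, 4 were lower on PTU in WT and 3 in hearts labelled cKO, and after T3 7 were higher in WT, against 5 higher and 1 lower in hearts labelled cKO. Serpinh1, the collagen chaperone HSP47, averaged 181 ± 29.5 FPKM after T3, 71.8 ± 6.88 FPKM on PTU and 116 ± 6.78 FPKM on chow in WT hearts (SD, n = 3 each). It rose by 1.31 after T3 in WT (adjusted p = 0.000245) and by 1.12 in hearts labelled cKO (adjusted p = 0.000798). Fkbp10, another endoplasmic chaperone, rose by 0.81 in WT and 0.83 in hearts labelled cKO. The prolyl hydroxylase subunit P4ha1 fell by 0.49 on PTU and rose by 0.48 after T3 in WT, and fell by 0.57 and rose by 0.44 in hearts labelled cKO, and P4ha2, another such subunit, fell by 0.43 and rose by 0.33 in WT, with log2 changes of -0.36 and 0.14 that were not called in hearts labelled cKO. Plod1, a lysyl hydroxylase, rose by 0.67 after T3 in WT and 0.55 in hearts labelled cKO. P4ha3 was not tested.

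For trimming and crosslinking, 4 of 11 tested genes were higher after T3 in WT and 2 in hearts labelled cKO, and 1 was lower on PTU in each genotype. Pcolce, which speeds the trimming of fibrillar procollagen, rose by 1.40 (SE 0.34, adjusted p = 0.00444) and Loxl1, a crosslinking oxidase, by 1.66 (SE 0.52, adjusted p = 0.0187) in WT. Sparc, a collagen-binding protein, rose by 1.2 and the procollagen protease Adamts3 by 0.41 there. In hearts labelled cKO, Pcolce, Loxl1 and Sparc had log2 changes of 0.59, 0.88 and 0.22 after T3, not called, while Adamts3 rose by 0.49. Summed over the list, WT T3 heart 2 had 749 FPKM, against 320 and 418 FPKM in the other hearts of its group. Lox, the main crosslinking oxidase, was not called in any of the 4 comparisons; after T3 it was at 1.89, 22.6 and 1.74 FPKM in WT hearts, with heart 2 again far above the others. Postn gave no call either, with log2 changes of -0.22 to 1.62 on PTU and -1.81 to 0.54 after T3 and an SE of 1.31.

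Of 13 tested partners of type IV collagen in the basement membrane, 5 were lower and 2 higher on PTU in WT (8.76% and 8.02% of all genes), 1 lower and 3 higher in hearts labelled cKO, and after T3 4 were higher and 3 lower in WT and 3 higher and 4 lower in hearts labelled cKO. Hspg2 (perlecan), which binds the type IV network, fell by 0.57 on PTU and rose by 0.72 after T3 in WT, and Nid2 (nidogen 2), which joins it to laminin, fell by 0.49 and rose by 0.70. The laminin chains Lama5 and Lamb1 had the opposite signs: Lama5 rose by 0.44 on PTU and fell by 1.35 after T3 in WT (SE 0.10, adjusted p = 1.02e-07), and Lamb1 rose by 0.37 and fell by 0.59. Lama2, a laminin chain named after its values were seen, instead fell by 0.31 on PTU and rose by 0.40 after T3 in WT, as Hspg2 and Nid2 did. Lama5 averaged 7.68 ± 1.01 FPKM after T3, 21.1 ± 0.255 FPKM on PTU and 15.3 ± 1.78 FPKM on chow in WT hearts (SD, n = 3 each).

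Of 6 tested collagen receptors, 4 were higher after T3 in WT and 1 in hearts labelled cKO. Ddr2, a receptor tyrosine kinase for fibrillar collagen, fell by 0.52 on PTU and rose by 0.50 after T3 in WT and fell by 0.46 and rose by 0.33 in hearts labelled cKO. Itga1 and Itgb1, which pair as a collagen-binding integrin, rose by 0.40 and 0.42 after T3 in WT, and Lair1, an inhibitory immune receptor, by 0.60. Among 13 tested genes of collagen breakdown and its inhibitors, 2 were higher and 2 lower after T3 in WT, and 1 higher and 2 lower in hearts labelled cKO. Mmp11 rose by 0.80 on PTU and fell by 1.35 after T3 in WT, Timp1, an inhibitor of these proteases, rose by 2.7 after T3 (SE 0.99, adjusted p = 0.0412), Mmp19 rose by 0.55 and Timp3 fell by 0.45. In hearts labelled cKO the log2 change of Timp1 after T3 was 0.48 and was not called. Of 9 tested fibril-associated proteoglycans none was called on PTU, and after T3 Prelp, which anchors fibrils, fell by 0.62 in WT and 0.70 in hearts labelled cKO.

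Of 21 tested genes of the TGF-beta pathway, which drives collagen transcription in fibroblasts, 1 was lower on PTU in WT (16.8% of all genes called) and 2 in hearts labelled cKO, and after T3 3 were higher and 3 lower in WT (44.1% of all genes called), against 3 higher and 6 lower in hearts labelled cKO. Ltbp4, which holds latent TGF-beta in the matrix, fell by 0.93 on PTU and rose by 0.59 after T3 in WT and fell by 0.63 and rose by 0.50 in hearts labelled cKO. Skil, a repressor of the pathway, rose by 0.73 after T3 in WT and its mediator Smad3 by 0.45, while Ltbp1 fell by 0.38. The ligands Tgfb1, Tgfb2 and Tgfb3 were not called in any of the 4 comparisons, with log2 changes after T3 in WT of 0.00, -0.07 and 0.70. Ctgf, a matrix gene induced by TGF-beta, fell by 2.53 after T3 in hearts labelled cKO (SE 0.57, adjusted p = 0.00237), at 37.8, 29.9 and 25.5 FPKM after PTU and T3 and 141, 278 and 153 FPKM on PTU. In WT its log2 change was -0.95 and was not called (adjusted p = 0.196).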

How the data were processed

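The authors deposited gene-level FPKM values of 18 libraries in 1 table, and also 6 pairwise tables whose group values in FPKM, p-values and q-values are named in the file headers. Per the submitters' processing notes, Bowtie2, Cufflinks and mm10 were used; versions and annotation are not given in the sources used here. Per the labels' protocols, libraries were polyA TruSeq version 2, which does not mark strand. Whether each library came from its own animal is not stated outright in the labels; p-values reflect only how far these libraries spread, which may be technical.

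Testing covered genes that reached 1 FPKM in 3 or more libraries and used limma 3.58.1 in R 4.3.3 on log2(FPKM + 1), a pseudocount that understates changes of low genes. The fit had 6 group means, trended and robust variances and 12 residual degrees of freedom. Benjamini-Hochberg adjustment ran over 12587 genes within each of 12 comparisons. Cacna2d1 and Trip10 held failed estimates and were left out. Depth is known only as ratios between libraries, from 1270 to 1590 low genes, of which 19.7% to 24.1% lay in the peak read. The fit was tested on simulated data. Replicate correlations lay between 0.975 and 0.992, and no columns were identical.

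Members and lists were chosen with earlier results of these data known. The named genes were every fibrillar and basement membrane collagen tested, every other collagen called in 1 of the 4 comparisons of PTU with chow and T3 with PTU, up to 4 called genes per pathway list by size in WT, and a fixed set (P4ha1, P4ha2, P4ha3, Lox, Serpinh1, Tgfb1, Tgfb2, Tgfb3, Ctgf and Postn). Alternatives covered the pseudocount, the filter, scaling, the hearts in the fit, library weights and leaving hearts out.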

Additional observations from a re-analysis of the deposited data

How the results depend on the processing

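No paired analysis was possible because the labels give no replicate numbers and the columns carry none that pair hearts across groups. Among collagens, T3 against PTU kept the calls of Col4a2, Col4a3 and Col4a4 in both genotypes and of Col4a1 and Col15a1 in WT under all 28 alternatives, and the genotype comparisons and interactions kept 0 calls. The calls of Col4a3 remain a description, because of how it passed the filter. Counts for PTU against chow are 5 in WT (4 of them basement membrane) and 4 in hearts labelled cKO (1 basement membrane), for T3 against PTU 8 in WT and 7 in hearts labelled cKO, and for T3 against chow 1 (Col4a2) in each. Without a filter, the count of T3 against chow in WT fell to 0 and that of basement membrane chains for PTU in hearts labelled cKO to 0. With 2 FPKM as the minimum, fewer low genes were tested and 1 collagen was called for PTU in hearts labelled cKO. With only the groups compared in the fit, the same count was 1 (0 basement membrane), 1 fibrillar collagen was called for T3 against PTU in hearts labelled cKO, and T3 against chow there gave 5 (3 basement membrane). With library weights that last comparison gave 2, both basement membrane. Without the heart highest in atrial markers of each group, PTU gave 1 (1 basement membrane) in WT and 0 in hearts labelled cKO, T3 against PTU 4 in hearts labelled cKO, and T3 against chow 2 (both basement membrane) in WT and 0 in hearts labelled cKO. Without the heart highest in Postn of each group, PTU gave 10 (3 fibrillar) in WT and 3 basement membrane chains in hearts labelled cKO, T3 against PTU 14 (4 fibrillar) in WT and 14 (2 fibrillar) in hearts labelled cKO, and T3 against chow 2 in hearts labelled cKO. The last 2 settings use fewer hearts; otherwise the cause was not tested.

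Leaving out 1 heart at a time gave 1 to 6 calls for PTU in WT (basement membrane 1 to 4), 0 to 4 in hearts labelled cKO (basement membrane 0 to 2), 0 to 1 fibrillar calls for T3 against PTU in WT and 0 to 2 in hearts labelled cKO, and 0 to 1 for T3 against chow in each genotype. Signs of several uncalled values turned. With library weights, the log2 change of Col5a3 was -0.0103 for PTU and 0.0549 for T3 against PTU in WT, and in hearts labelled cKO Col3a1 was -0.0465 and Col6a3 -0.0678 for PTU and Col3a1 0.19 for T3. Without the atrial-highest hearts, PTU in WT gave 0.000894 for Col11a2, 0.0227 for Col4a5 and 0.13 for Col5a2, PTU in hearts labelled cKO 0.11 for Col15a1, and T3 0.0462 for Col4a5 in WT and -0.0882 for Col5a1 in hearts labelled cKO. Without the Postn-highest hearts, PTU gave -0.0624 for Col5a3 in WT and, in hearts labelled cKO, -0.28 for Col1a1, -0.16 for Col1a2, -0.62 for Col3a1, -0.23 for Col5a1, -0.10 for Col5a2 and -0.28 for Col6a3. For T3 against PTU they gave 0.0811 for Col11a2 and 0.00942 for Col5a3 in WT and 0.19 for Col1a1, 0.47 for Col3a1 and 0.10 for Col5a2 in hearts labelled cKO. Leaving out single hearts, PTU in WT ran from -0.18 to 0.12 for Col11a2, -0.13 to 0.34 for Col16a1, -0.11 to 0.0252 for Col4a5, -0.82 to 0.0208 for Col5a2 and -0.10 to 0.33 for Col5a3. PTU in hearts labelled cKO ran from -0.59 to 0.27 for Col15a1, -0.40 to 1.17 for Col1a1, -0.28 to 0.97 for Col1a2, -0.78 to 0.98 for Col3a1, -0.49 to 0.0493 for Col4a1, -0.31 to 0.63 for Col5a1, -0.22 to 1.13 for Col5a2 and -0.32 to 0.26 for Col6a3. T3 against PTU in WT ran from -0.26 to 0.0387 for Col11a2, -0.68 to 0.00765 for Col16a1, -0.20 to 0.0644 for Col4a5 and -0.25 to 0.18 for Col5a3, and in hearts labelled cKO from -1.06 to 0.51 for Col1a1, -1.14 to 0.12 for Col1a2, -0.89 to 0.87 for Col3a1, -0.23 to 0.71 for Col5a1 and -0.99 to 0.36 for Col5a2.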

Other observations

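The ratio of FPKM between 2 chains differed with treatment for some collagen pairs and passed no test for others. The values had been seen before the test was chosen, and 6 chain pairs were compared for 2 treatment differences with the genotypes pooled (n = 6 hearts per treatment), by an exact two-sided permutation test on log2 ratios, adjusted over the 12 tests. Col4a1 over Col4a2 was 1.04 to 1.28 after T3 and 1.32 to 1.65 on PTU (log2 difference -0.38, exact p = 0.00216, adjusted p = 0.00866), and every T3 heart lay below every PTU heart; it was 1.32 to 1.49 on chow. Col4a3 over Col4a4 was 0.547 to 0.837 after T3 and 0.379 to 0.535 on PTU (log2 difference 0.57, exact p = 0.00216, adjusted p = 0.00866), although PTU levels of both were under 1.4 FPKM. Col6a1 over Col6a2 was 0.827 to 0.953 after T3 and 0.963 to 1.22 on PTU (log2 difference -0.22, exact p = 0.00216, adjusted p = 0.00866), again with no overlap. For these 3 pairs the p is the smallest that 6 against 6 hearts can give. Col3a1 over Col1a1 was 1.48 to 1.93 on PTU and 1.91 to 2.15 on chow (log2 difference -0.30, exact p = 0.00433, adjusted p = 0.0130). For T3 against PTU the same ratio was 1.72 to 2.19 after T3 and 1.48 to 1.93 on PTU (log2 difference 0.28, exact p = 0.0108, adjusted p = 0.0260), and without the heart highest in Postn of each group that difference was 0.29 with overlap (exact p = 0.0571, adjusted p = 0.0857). Without the heart highest in Postn of each group, the log2 differences were -0.35 for Col4a1 over Col4a2, 0.53 for Col4a3 over Col4a4, -0.27 for Col6a1 over Col6a2 and -0.35 for Col3a1 over Col1a1 (PTU against chow), each without overlap. Exact p was 0.0286, the smallest 4 against 4 hearts allow, and adjusted p 0.0571 for each, so none passed. Because no smaller p was possible, not passing decides nothing here. For Col1a1 over Col1a2 and Col5a1 over Col5a2, T3 against PTU had log2 differences of 0.35 and 0.40 over all hearts (exact p = 0.110 and 0.113, adjusted p = 0.167 for each). Without those hearts they were 0.51 and 0.44, with no overlap and the same smallest p (exact p = 0.0286, adjusted p = 0.0571 for each).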
